A study of Mus musculus with 18 samples.

Results

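The interferon-inducible GTPases described here are 10 mouse genes, Gbp2, Gbp3, Gbp5, Gbp7, Irgm1, Irgm2, Igtp, Iigp1, Tgtp1 and Ifi47. They were chosen by gene symbol among the 36172 genes listed in the deposited count matrix, and each symbol was found once. The values come from translating ribosome affinity purification followed by RNA sequencing (TRAP-RNAseq) of mouse brain, and were compared between 4 groups made by fraction and treatment. All 10 genes passed the filter on low counts and were tested among 14803 genes.

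Every animal carried Cx3cr1-Cre/Ert2+ and NuTRAP+, so the controls had the same alleles as the treated animals. In these mice tamoxifen, given at about 3 months of age, allows a Cre recombinase driven by the Cx3cr1 promoter to switch on an EGFP-tagged ribosomal protein, mainly in microglia among brain cells, although other cells that use this promoter can carry the tag as well. Between 3 and 4 weeks after tamoxifen the animals received 1 intraperitoneal injection of lipopolysaccharide (LPS, 5 mg/kg), a bacterial cell wall component, or of phosphate-buffered saline (PBS), and brain was collected 24 h later. The lysate of a brain hemisphere gave an input, which holds RNA of all brain cells, and a positive fraction pulled down with an antibody against the tag. With 4 animals given PBS and 5 given LPS, the groups are called Input PBS, Input LPS and Positive PBS, with 4 libraries each, and Positive LPS, with 5. The PBS animals were 268, 272, 273 and 506, and the LPS animals were 266, 267, 270, 271 and 507, each with 1 input and 1 positive library. The input library of animal 271 held 1252 counts and was left out. Values of single libraries follow in this order of animals throughout, so that animal 271 has a value in the positive fraction and none in input. Animals 267, 272 and 273 were male and the other 6 were female.

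Interferons bind receptors on the cell surface, whose JAK kinases phosphorylate STAT proteins. STAT complexes then bind GAS and ISRE elements in the promoters of target genes, and factors of the IRF family bind ISRE elements as well. Guanylate-binding proteins (GBPs) and immunity-related GTPases (IRGs) are among the most strongly induced products. They assemble on the membranes around intracellular microbes, and in mice the IRG family divides into regulators that reside on host membranes (the IRGM proteins) and effectors that load onto the vacuole of the microbe.

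The 4 GBP genes lie side by side on chromosome 3 of the mm10 build, all on the forward strand. Gbp5 spans 142496934 to 142522344, Gbp7 spans 142530338 to 142550083, Gbp3 spans 142560052 to 142573212 and Gbp2 spans 142620663 to 142638008. On chromosome 11, Irgm1 spans 48865249 to 48871346 and Tgtp1 spans 48985329 to 48992246, both on the reverse strand, and Ifi47 spans 49087017 to 49096987 on the forward strand. Igtp at 58199556 to 58207592 and Irgm2 at 58214977 to 58222783 are forward-strand neighbours further along chromosome 11.

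The promoters of the members are described first, apart from the LPS values that follow. RefSeq promoter windows on build GRCm38.p6, each holding 250 bases before and 50 bases after a start site, were found for 9 of the 10 genes and numbered 10 in all. An ISRE core was searched as GAAANNGAAA and a GAS core as TTCNNNGAA, each on both strands, and matches of the same core may overlap. The ISRE core was present in windows of 8 of the 9 genes, against 3.44% of all 32851 windows of the same length. Genes were counted by a match in any of their windows, while the shares are of single windows, and window 2 of Gbp3 held neither core. The GAS core was present in 5 of the 9, against 8.3% of all windows, and both were present in those same 5 genes, namely Gbp5, Gbp7, Irgm2, Igtp and Tgtp1, against 0.454% of all windows. The window of Ifi47 held neither core, and its RefSeq start lay at -10430 bases from the start that the deposited matrix gives for Ifi47, so it does not cover the promoter of that start. Iigp1 had no window in the table. A match of letters describes the window and does not show that a factor binds there. The members were chosen as interferon-inducible genes, and some are close relatives of each other. The shares are therefore a description, and a link between these matches and the LPS values was not tested.

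The first 3 stretches are shown for the ISRE core near the start of Gbp2, Gbp3 and Irgm1, and capitals mark the bases of the core on either strand. In Gbp3 and Irgm1 there are 2 overlapping matches, so the capitals run on. The stretches lie at chr3:142620592-142620625 (forward strand), chr3:142559987-142560026 (forward strand) and chr11:48871423-48871462 (reverse strand), and all end upstream of the start site.
Gbp2: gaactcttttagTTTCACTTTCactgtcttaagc
Gbp3: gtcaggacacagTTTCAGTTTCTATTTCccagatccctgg
Irgm1: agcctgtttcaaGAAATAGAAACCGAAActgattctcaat

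The next 3 stretches are shown because a GAS core and an ISRE core stand 2 bases apart in Irgm2, Igtp and Tgtp1, and capitals mark first the GAS core and then the ISRE core. They lie at chr11:58214890-58214934 (forward strand), chr11:58199499-58199543 (forward strand) and chr11:48992302-48992346 (reverse strand). The stretches of Irgm2 and Igtp differed at 1 of 45 bases, and that of Tgtp1 differed from them at 11 and 12 bases. This spacing, which was noticed in these sequences, occurred in 5 of the 32851 windows, in the 3 genes shown and in Tgtp2 and Gm12185, both of the IRG family as well.
Irgm2: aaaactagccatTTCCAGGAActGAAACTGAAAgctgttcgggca
Igtp: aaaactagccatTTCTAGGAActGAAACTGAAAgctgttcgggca
Tgtp1: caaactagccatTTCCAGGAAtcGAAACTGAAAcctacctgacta

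**Figure D1:**
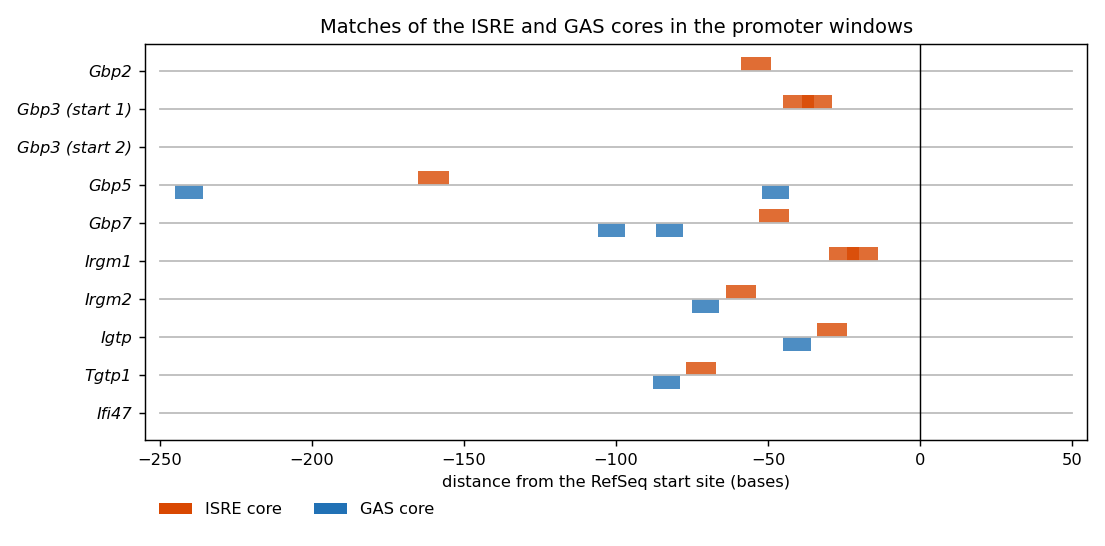
Matches of the ISRE core (orange, above each line) and the GAS core (blue, below) in the RefSeq promoter windows of 9 genes, with the distance from the start site in bases on the horizontal axis. Darker orange marks overlapping matches. All matches lie before the start site, and in Irgm2, Igtp and Tgtp1 a GAS and an ISRE match stand 2 bases apart.

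The 17 libraries used held 22968939 to 35123345 counts. The labelled cell type was checked against 8 microglia markers, of which 8 were higher in the positive fraction than in input, with a median log2 ratio of 4.22 in PBS animals and 4.03 in LPS animals. The summed counts of 4 neuron markers were 140401 to 149970 in Input PBS and 127336 to 157800 in Positive PBS. Their median log2 ratio of positive fraction to input was -0.017 with PBS and -0.17 with LPS. RNA of other brain cells was thus present in the positive fraction, and neuron markers were near their input level. The median ratio of 4 oligodendrocyte markers was -1.99 with PBS and -1.73 with LPS. In bulk samples such as these, fewer cells of a type and less RNA per cell cannot be told apart. The input and positive libraries of an animal come from 1 lysate, and the comparisons below share libraries.

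At 24 h after LPS all 10 GTPase genes were higher in both fractions. The estimates ran from 3.49-fold for Gbp7 to 19.4-fold for Gbp2 in input and from 1.35-fold for Irgm2 to 10.2-fold for Gbp2 in the positive fraction. In input 10 of 10 were called higher, where 7.16% of all tested genes were called higher, and in the positive fraction 10 of 10 were called higher, against 19.0% of all tested genes. A gene was called at an adjusted p under 0.05 and a fold change of over 25%. The median log2 fold change of the 10 genes was 2.87 in input and 1.78 in the positive fraction, and the median over all tested genes was 0.00 and 0.01. All LPS libraries lay above all PBS libraries for 10 of the 10 genes in input, against 12.6% of all tested genes, and for 8 of the 10 in the positive fraction, against 17.1%, the exceptions being Irgm2 and Ifi47.

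**Figure D2:**
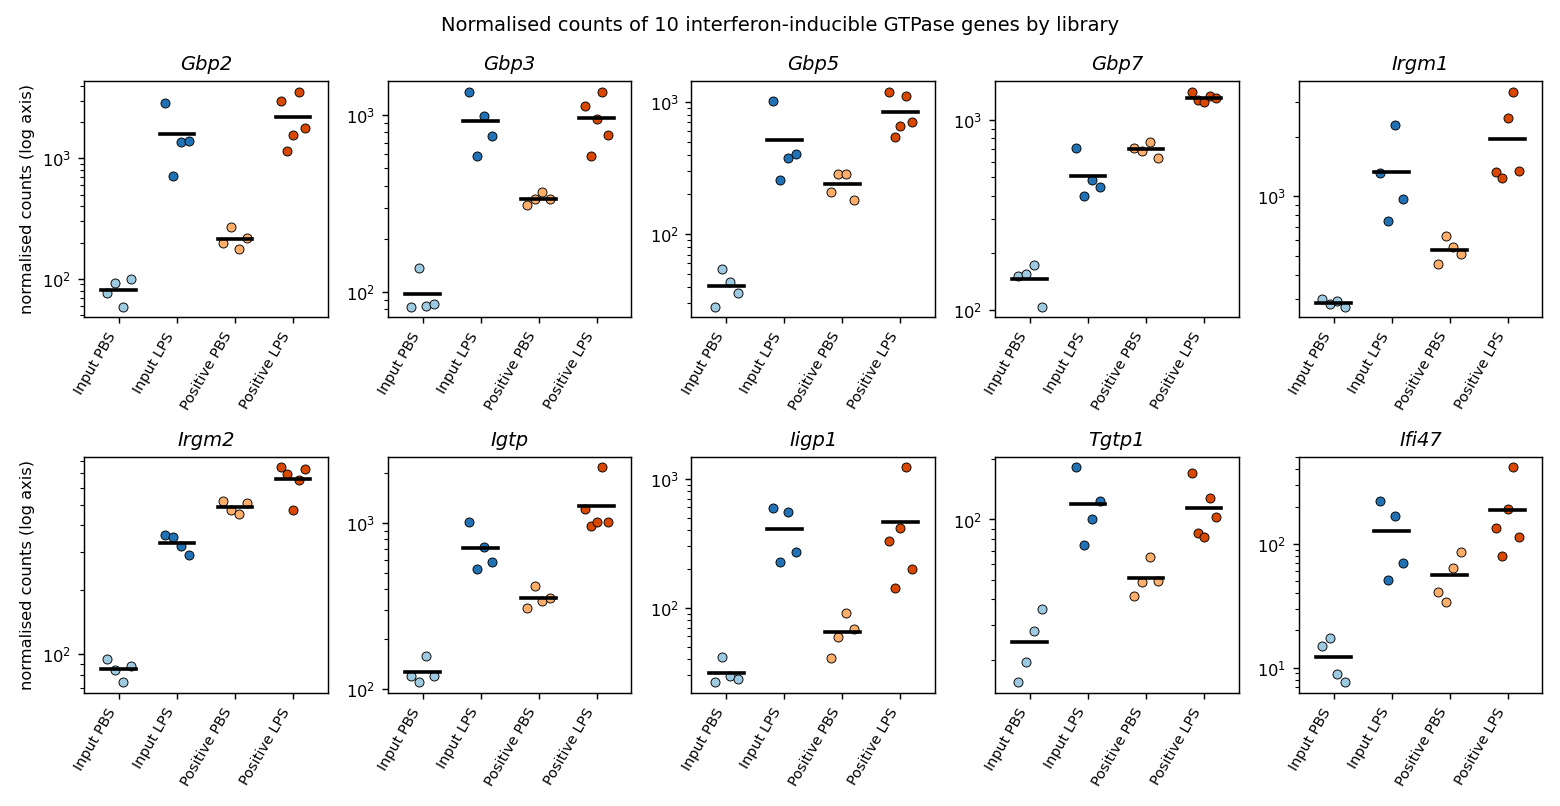
Normalised counts of the 10 genes in each of the 17 libraries (log axis), with 1 point per library and a line at the group mean. Input LPS lies above Input PBS without overlap in all 10 panels, and Positive LPS lies above Positive PBS without overlap in 8 panels, all but those of Irgm2 and Ifi47. Each panel has its own vertical scale.

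Among the GBPs, which bind to the vacuoles of intracellular microbes, Gbp2 had the largest change. Its normalised counts were 75.6, 92.2, 58.9 and 99.5 in Input PBS and 2855, 711, 1351 and 1381 in Input LPS. In the positive fraction they were 198, 268, 178 and 217 with PBS and 2960, 1138, 1566, 3556 and 1788 with LPS. The groups did not overlap in either fraction, and animals 266 and 271 were the highest and animal 267 the lowest of the LPS libraries. The log2 fold change was 4.27 (SE 0.42, edgeR adjusted p = 1.38e-06) in input, which is 19.4-fold, and 3.35 (SE 0.38, edgeR adjusted p = 1.94e-06) in the positive fraction, which is 10.2-fold.

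Gbp5 promotes the assembly of the NLRP3 inflammasome. Its normalised counts were 28.3, 54.1, 43.7 and 36.0 in Input PBS and 1015, 259, 374 and 404 in Input LPS. They were 207, 287, 287 and 180.4 in Positive PBS and 1194, 545, 655, 1112 and 707 in Positive LPS. Neither fraction showed overlap, and in input animal 266 was far above the other LPS animals. On the log2 scale LPS changed Gbp5 by 3.67 (SE 0.40, edgeR adjusted p = 5.13e-06) in input and 1.80 (SE 0.34, edgeR adjusted p = 0.000377) in the positive fraction.

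Gbp3, the member nearest to Gbp2 on chromosome 3, was at similar levels in both fractions after LPS. The PBS libraries were at 82.9, 136, 84.0 and 86.2 normalised counts in input and 309, 338, 366 and 334 in the positive fraction. The LPS libraries were at 1354, 587, 984 and 761 in input and 1130, 586, 950.2, 1352 and 776 in the positive fraction. The fractions were thus apart with PBS and overlapped with LPS. The LPS effect was 3.24 (SE 0.28, edgeR adjusted p = 2.99e-07) on the log2 scale in input and 1.51 (SE 0.24, edgeR adjusted p = 8.86e-05) in the positive fraction.

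Gbp7, which has been linked to autophagy and to delivery of the phagocyte oxidase, was the member with the tightest replicates in the positive fraction after LPS. Its counts were 151, 154, 173 and 104 in Input PBS and 712, 397, 483 and 441 in Input LPS. They were 715, 689.9, 764 and 633 in Positive PBS and 1409, 1274, 1239, 1333 and 1313 in Positive LPS. The 4 groups did not overlap, except that the highest Input LPS library, of animal 266, lay within the range of Positive PBS. For Gbp7 the log2 fold change was 1.80 (SE 0.17, edgeR adjusted p = 7.08e-07) in input and 0.91 (SE 0.15, edgeR adjusted p = 0.000113) in the positive fraction.

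The IRGM proteins Irgm1, Irgm2 and Igtp reside on host membranes and hold the effector IRGs in their inactive form. Irgm1 was at 302, 285, 293 and 276 in Input PBS and 1314, 751, 2293 and 966 in Input LPS. It was at 454, 627, 552 and 509.6 in Positive PBS and 1327, 1231, 2503, 3387 and 1338 in Positive LPS. PBS and LPS libraries were apart within each fraction, while the fractions overlapped with LPS, and animals 270 and 271 stood above the other LPS animals. For Irgm1 the log2 fold change was 2.20 (SE 0.34, edgeR adjusted p = 0.000168) in input and 1.87 (SE 0.32, edgeR adjusted p = 0.000145) in the positive fraction.

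Irgm2 had the smallest LPS effect of the 10 genes in the positive fraction. Its normalised counts were 94.8, 84.6, 74.1 and 88.6 in Input PBS and 362, 355, 319 and 290.1 in Input LPS, which did not overlap. In the positive fraction they were 523, 472, 451 and 508 with PBS and 746, 693, 469.8, 653 and 736 with LPS, where the library of animal 270 fell inside the PBS range and the other 4 lay above it. The log2 fold change was 1.95 (SE 0.14, edgeR adjusted p = 6.50e-08) in input and 0.43 (SE 0.13, edgeR adjusted p = 0.0108) in the positive fraction, a fold of 1.35. The latter call was lost without animals 506 and 507 (0.41, edgeR adjusted p = 0.0600).

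Igtp, whose promoter stretch is nearly identical to that of Irgm2, had a larger estimate in the positive fraction. Its counts were 119, 109, 159 and 119 in Input PBS and 1014, 530.0, 720.4 and 587 in Input LPS. They were 307, 415, 338 and 355 in Positive PBS and 1224, 963, 1021, 2172 and 1019 in Positive LPS. The groups did not overlap within either fraction, and animal 271 was far above the other 4 LPS animals. The fitted effect on Igtp was 2.49 (SE 0.26, edgeR adjusted p = 2.83e-06) (log2) in input and 1.85 (SE 0.24, edgeR adjusted p = 7.75e-06) in the positive fraction.

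Iigp1, Tgtp1 and Ifi47 are effector IRGs, which load onto the vacuole membrane of intracellular parasites. Iigp1 (chromosome 18, 60376029 to 60392629, forward strand) was at 26.4, 41.3, 29.4 and 28.1 in Input PBS and 596, 224, 547 and 271 in Input LPS. It was at 41.1, 59.0, 91.4 and 68.8 in Positive PBS and 326, 142, 415, 1222 and 201 in Positive LPS. Within each fraction the PBS and LPS libraries were apart, while the fractions overlapped under both treatments, and the positive library of animal 271 was far above the next. The log2 fold change was 3.70 (SE 0.58, edgeR adjusted p = 0.000218) in input and 2.83 (SE 0.53, edgeR adjusted p = 0.000378) in the positive fraction, and the latter was 2.07 (edgeR adjusted p = 0.000287) without the library of animal 271.

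Tgtp1 was among the lowest members. Its counts were 15.5, 19.6, 28.0 and 35.7 in Input PBS and 181, 74.7, 100.4 and 124 in Input LPS. They were 41.7, 48.8, 65.4 and 49.3 in Positive PBS and 169.7, 85.5, 82.1, 128 and 103 in Positive LPS. PBS and LPS libraries did not overlap in either fraction. For Tgtp1 the log2 fold change was 2.26 (SE 0.32, edgeR adjusted p = 8.82e-05) in input and 1.15 (SE 0.30, edgeR adjusted p = 0.00479) in the positive fraction. Tgtp1 has a near-identical neighbour, Tgtp2, and the deposited estimated counts may divide shared reads between them, so the level of Tgtp1 alone is uncertain. The mean of the summed counts of both genes was 29.5 ± 10.7 in Input PBS, 147 ± 59.1 in Input LPS, 69.2 ± 17.7 in Positive PBS and 144 ± 39.1 in Positive LPS (SD), so the sum was higher with LPS in both fractions, as was Tgtp1. Reads may be shared in the same way among the GBP genes, which are paralogs.

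Ifi47 was the lowest member in Input PBS. Its counts were 15.0, 17.5, 8.93 and 7.62 in Input PBS and 224, 51.4, 167 and 70.6 in Input LPS, which did not overlap. They were 40.8, 33.8, 64.0 and 85.4 in Positive PBS and 135, 80.5, 192, 415 and 114 in Positive LPS, where the LPS library of animal 267 lay just under the highest PBS library, of animal 506. The fitted effect on Ifi47 was 3.40 (SE 0.59, edgeR adjusted p = 0.000563) (log2) in input and 1.75 (SE 0.49, edgeR adjusted p = 0.00842) in the positive fraction.

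The spread among LPS animals was shared by several members. In input the female animal 266 had the highest value for 9 of the 10 genes and animal 270 for Irgm1, and the male animal 267 had the lowest value for 9 of the 10. In the positive fraction animal 271 had the highest value for 6 genes and animal 266 for 4, and animal 267 had the lowest for 7 and animal 270 for 3. Animal 267 was the only male in the LPS group, so sex and animal cannot be told apart there. With sex as a covariate 10 of 10 members were still called higher in both fractions. The summed normalised counts of the 10 genes ranged from 3940 to 9626 in Input LPS and from 6738 to 15328 in Positive LPS, against 881 to 994 in Input PBS and 2837 to 3239 in Positive PBS.

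Levels were compared between genes as normalised counts per kilobase of annotated exon. In Input PBS Irgm1 was the highest at 125 ± 4.87 counts per kilobase (SD, n = 4), followed by Igtp at 62.7 ± 10.8, and both stood apart from the gene below them. Gbp2, Gbp3, Gbp7 and Irgm2 followed between 32.4 and 23.2, and neighbours among them overlapped. Gbp5, Iigp1, Tgtp1 and Ifi47 were the lowest, from 14.4 down to 6.53, again with overlap between neighbours. In Positive PBS Irgm1 at 232 ± 31.8 and Igtp at 175 ± 22.5 overlapped, and Irgm2 followed at 132 ± 8.95.

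After LPS the order per kilobase changed. Gbp2 took the first place with 626 ± 361 counts per kilobase in Input LPS (SD, n = 4) and 875 ± 403 in Positive LPS (n = 5), but its range overlapped that of Irgm1 at 577 ± 296 and 849 ± 414. In Input LPS every pair of neighbours in the order overlapped. In Positive LPS Igtp at 633 ± 252 stood apart from Gbp3 at 314 ± 97.7, and Gbp7 at 234 ± 11.5 stood apart from Irgm2 at 179 ± 30.4. Tgtp1 was the lowest in both, at 42.5 ± 16.1 and 40.3 ± 12.8.

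**Figure D3:**
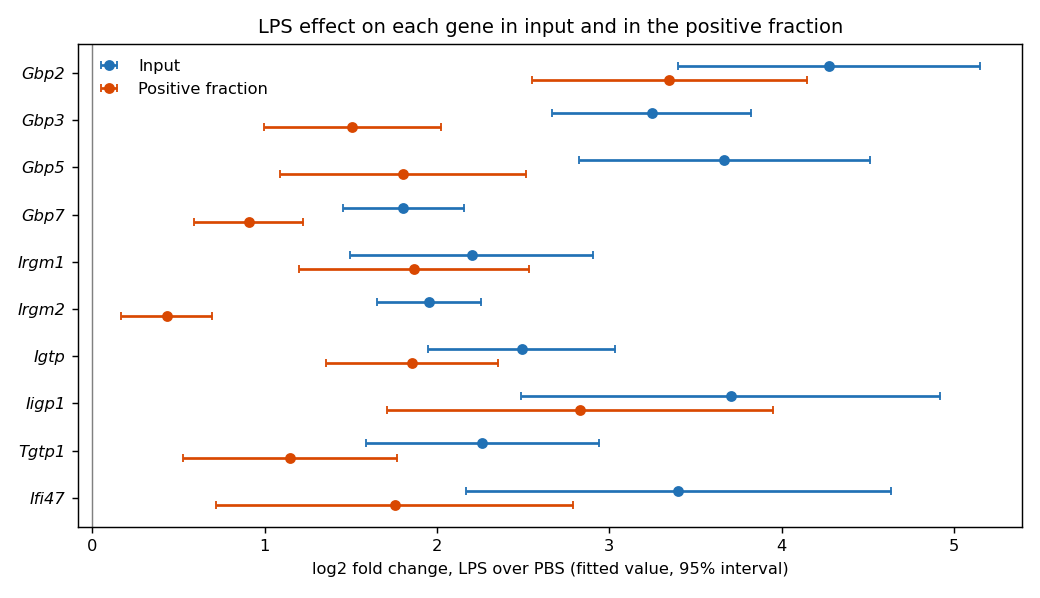
Log2 fold change of LPS over PBS for each gene in input (blue) and in the positive fraction (orange), with 95% intervals from the fit. The blue point lies to the right of the orange one for all 10 genes, and the intervals do not overlap for Gbp3, Gbp5, Gbp7 and Irgm2.

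The next comparison asked whether the response differed between the fractions. The LPS effect was smaller in the positive fraction than in input for 10 of 10 members, with a median difference of -1.02 on the log2 scale, where the median over all tested genes was -0.02. The difference was called for 4 of the 10 members, Gbp3, Gbp5, Gbp7 and Irgm2, all in this direction, where 1.42% of all tested genes were called in this direction and 5.46% in the other. Irgm2 had a difference of -1.52 (SE 0.19, edgeR adjusted p = 9.68e-05) and Gbp3 of -1.74 (SE 0.35, edgeR adjusted p = 0.00515). Gbp5 had -1.86 (SE 0.51, edgeR adjusted p = 0.0305) and Gbp7 had -0.90 (SE 0.22, edgeR adjusted p = 0.0173).

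The other 6 members did not pass this test. Their differences were -1.65 for Ifi47 (95% interval -3.23 to -0.064), -1.12 for Tgtp1 (-2.02 to -0.21) and -0.93 for Gbp2 (-2.02 to 0.17). For Iigp1 the difference was -0.87 (-2.46 to 0.71), for Igtp -0.64 (-1.35 to 0.068) and for Irgm1 -0.33 (-1.27 to 0.60). Each of these 6 intervals includes the estimate for Gbp7, so the test does not show that these genes responded alike in both fractions. With the animal as a block, a fit in which animal 271 adds nothing because it has no input library, 10 of 10 differences were called in this direction against 4.03% of all tested genes, from -1.97 for Ifi47 to -0.56 for Irgm1 (edgeR adjusted p = 0.0167 and 0.0338).

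Some of these calls depended on which animals entered. Without animals 506 and 507 only Irgm2 was called (1 of 10), with Gbp3 at -1.70 (edgeR adjusted p = 0.0610) and Gbp7 at -0.87 (adjusted p = 0.0756). The call for Gbp5 was lost when any 1 of 7 libraries was left out, namely the input libraries of animals 266, 268, 273 and 506 and the positive libraries of animals 272, 273 and 507, with values from -1.90 to -1.30. The difference for Irgm1 was 0.060 (adjusted p = 0.954) without the input library of animal 270. Irgm2 kept its call under each of the 27 alternatives that gave a value.

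The rises were also compared on the scale of counts rather than of folds. The mean rise from PBS to LPS in normalised counts was larger in the positive fraction than in input for 7 of the 10 genes, for example 1986 against 1493 for Gbp2 and 613 against 363 for Gbp7. It was smaller for Gbp3, at 622 against 824, for Irgm2, at 171 against 246, and for Tgtp1, at 62.4 against 95.3. Without the positive library of animal 271 the count was 5 of the 10, since the order turned for Iigp1, from 396 to 206 against 378 in input, and for Ifi47, from 131 to 74.4 against 116. The libraries were scaled by median-of-ratios size factors, so these rises compare relative levels and not amounts of RNA. This scaling does not make the library totals equal, and rises at equal totals were not compared.

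The same difference can be read as a change in how far each gene was enriched in the positive fraction. In PBS animals 9 of 10 members were called higher in the positive fraction than in input, against 21.0% of all tested genes, with a median log2 ratio of 1.64. In LPS animals 3 of 10 were called higher, Gbp7, Irgm2 and Igtp, against 27.6% of all tested genes, with a median of 0.55. With the animal as a block the LPS count was 7 called, of which 6 were higher, now with Gbp2, Gbp5 and Irgm1, and Iigp1 was lower, and the share of all tested genes called higher was again 27.6%. These ratios share their libraries with the LPS effects, and the difference between the PBS and LPS ratios is the same quantity as the difference of the LPS effects.

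Irgm2 and Gbp7 stayed above their input in every animal with both libraries. Within each animal, Irgm2 in the positive fraction was 5.51, 5.58, 6.08 and 5.74 times its input in PBS animals and 2.06, 1.95, 1.47 and 2.54 times in LPS animals 266, 267, 270 and 507. Gbp7 was 4.75, 4.47, 4.41 and 6.09 times its input with PBS and 1.98, 3.21, 2.57 and 2.97 times with LPS. Neither gene overlapped between PBS and LPS animals. The fitted log2 ratio of Irgm2 was 2.51 (SE 0.15, edgeR adjusted p = 9.29e-11) with PBS and 0.99 (SE 0.13, edgeR adjusted p = 2.97e-06) with LPS. That of Gbp7 was 2.27 (SE 0.17, edgeR adjusted p = 3.18e-09) and 1.37 (SE 0.15, edgeR adjusted p = 4.84e-07).

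Gbp5 and Gbp3 had lower ratios in LPS animals than in PBS animals. Gbp5 was 7.34, 5.31, 6.57 and 5.01 times its input with PBS and 1.18, 2.11, 1.75 and 1.75 times with LPS. Gbp3 was 3.73, 2.48, 4.35 and 3.87 times its input with PBS and 0.834, 0.999, 0.965 and 1.02 times with LPS, so that the LPS ratios lay close to 1. The fitted log2 ratio of Gbp5 was 2.58 (SE 0.40, edgeR adjusted p = 4.08e-05) with PBS and 0.71 (SE 0.32, edgeR adjusted p = 0.0629) with LPS, and the latter was 0.72 and called with the animal as a block (edgeR adjusted p = 0.000143). That of Gbp3 was 1.79 (SE 0.27, edgeR adjusted p = 3.00e-05) and 0.057 (SE 0.23, edgeR adjusted p = 0.844).

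Iigp1 was the 1 member below its input in every LPS animal with both libraries, at 0.547, 0.633, 0.759 and 0.740 times, after 1.55, 1.43, 3.11 and 2.45 times in PBS animals. The fitted log2 ratio with LPS was nevertheless 0.17 (SE 0.46, edgeR adjusted p = 0.765), in a fit that also takes in the high positive library of animal 271. The ratio was -0.60 (edgeR adjusted p = 0.134) without that library and -0.59 (adjusted p = 0.00205) with the animal as a block. In PBS animals the ratio of Iigp1 was 1.04 (SE 0.60, edgeR adjusted p = 0.165) and was the only one of the 10 not called, although it was called with the block (1.02, adjusted p = 0.000583).

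The other 5 members had these ranges. Gbp2 ranged from 2.18 to 3.03 times its input with PBS and from 1.04 to 1.60 with LPS, and Igtp from 2.13 to 3.79 and from 1.21 to 1.82. Tgtp1 ranged from 1.38 to 2.69 and from 0.817 to 1.14, and Ifi47 from 1.94 to 11.2 and from 0.602 to 1.61. Irgm1 ranged from 1.50 to 2.20 with PBS and from 1.01 to 1.64 with LPS. The ratios of PBS animals thus lay above those of LPS animals without overlap for 9 of 10 members, all but Irgm1, against 8.38% of all tested genes. Its fitted ratio in PBS animals, 0.89 (SE 0.33, edgeR adjusted p = 0.0350), was also the weakest of those called and lost its call in 9 of the 28 alternatives, among them 7 that left out a single PBS library.

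**Figure D4:**
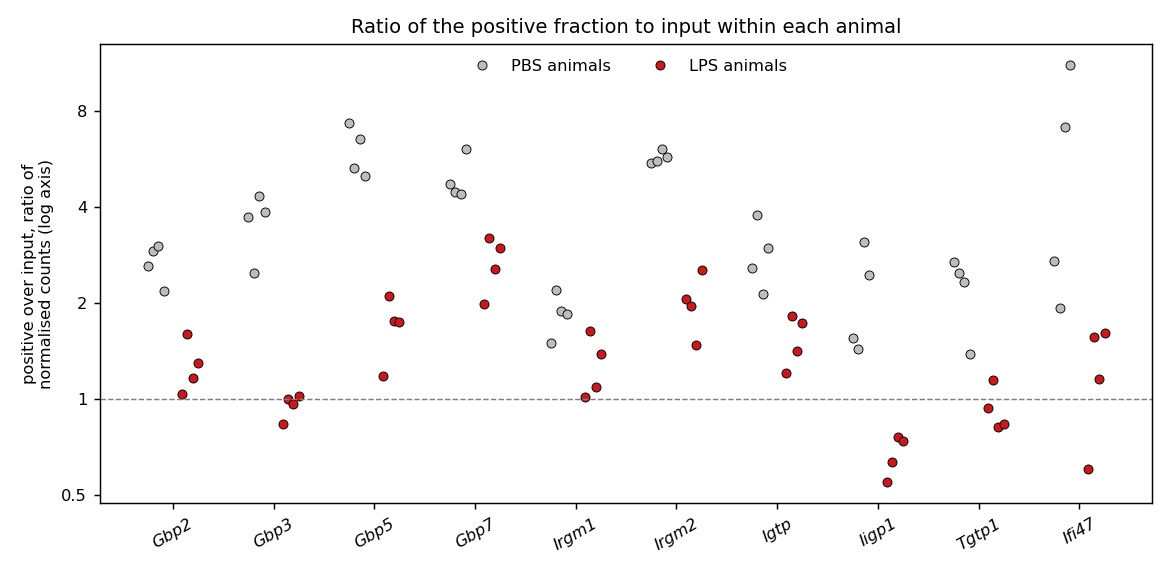
Ratio of normalised counts in the positive fraction to those in input within each animal (log axis), for 4 PBS animals (grey) and 4 LPS animals (red) per gene. The dashed line marks equal counts. The red points lie below all grey points for each gene other than Irgm1, and the red points of Iigp1 all lie below 1.

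Markers of other cell types were read beside this comparison. Of 6 endothelial markers, 5 were called higher in the positive fraction than in input with PBS (median log2 ratio 1.50) and 5 with LPS (0.75). The median difference of their LPS effects was -0.78, with 0 of 6 called by edgeR (4 at an unadjusted p under 0.05), 0 by limma and 3 by DESeq2. With the animal as a block 5 of the 6 were called in the direction of the GTPases. Their summed counts were 1945 to 2942 in Input PBS, 2988 to 4285 in Input LPS, 5216 to 7824 in Positive PBS and 4884 to 7877 in Positive LPS, and none of the 6 was at 0. Cldn5, a tight junction gene of brain vessels, had a difference of -0.82 (SE 0.25, edgeR adjusted p = 0.0563). The differences of the endothelial markers thus had the same sign as those of the members. Their median LPS effect was 0.34 in input, with 2 of 6 called higher and 1 lower by edgeR. It was -0.47 in the positive fraction, with 1 called higher and 2 lower. The part of endothelial RNA in the result was not tested.

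Microglia markers had a median difference of -0.23, with 0 of 8 called by edgeR, by DESeq2, by limma and with the animal as a block (0 at an unadjusted p under 0.05 in edgeR, and 2 with the block). Astrocyte markers had a median difference of -0.13, with 0 of 6 called in each of these fits (1 at an unadjusted p under 0.05). The 7 neutrophil markers summed to 155 to 424 in Input PBS and 478 to 1331 in Input LPS, and to 28.8 to 139 and 318 to 966 in the positive fraction. By edgeR 5 of the 5 tested were called higher with LPS in both fractions. DESeq2 and limma each called 4 of the 5 higher in input, and the block called 4 of the 5 in the positive fraction. Ly6g, a defining neutrophil marker, was at 0 in every library. The 8 T and NK cell markers summed to 19.6 to 44.7, 22.4 to 33.6, 15.1 to 43.7 and 10.4 to 32.0 in the same order, 0 of 8 passed the filter, and Ncr1 was at 0 in each Positive LPS library. The 5 monocyte markers summed to 552 to 802, 633 to 894, 1630 to 2944 and 1136 to 2721. Over the 4 of them tested the median log2 ratio of positive fraction to input was 1.54 with PBS and 0.40 with LPS. Their median difference of the LPS effect was -0.49, the direction of the GTPases, with 0 of 4 called by edgeR, DESeq2 or limma (1 at an unadjusted p under 0.05) and 1 with the animal as a block. Neutrophil markers had a median difference of 0.36, the other direction, with 1 of 5 called by edgeR, DESeq2, limma and with the block. The 4 oligodendrocyte markers had a median difference of 0.25, with 0 called by edgeR and 2 with the block, both with the larger effect in the positive fraction. The 4 neuron markers had -0.15, with 0 called in either fit. The part of monocyte or neutrophil RNA in the members' values was not tested.

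The genes around the members in the interferon pathway were taken from lists by role. Among the ligands, Ifng had at most 2.61 normalised counts in any library, which is under the limit of 3 counts in its library, and the 16 interferon genes together had at most 10.3, with 6 of them at 0 in each Positive LPS library. Ifng was thus not detectable at this depth, which does not show that it was absent. Of the interferon-inducing cytokines, Il18 was at -0.49 (SE 0.15, edgeR adjusted p = 0.0413) in input and -0.16 (SE 0.15, edgeR adjusted p = 0.393) in the positive fraction, and Il12a was at 0.016 and -0.028 in the same order. Il12b, a subunit of the interferon-inducing cytokine IL-12, had a mean of 1.45 in Positive PBS and 53.9 in Positive LPS but did not pass the filter. Of the 5 receptor genes tested, 3 were called higher with LPS in the positive fraction and 0 in input by edgeR (1 at an unadjusted p under 0.05, and 0 called by DESeq2 or limma). Ifngr1, a subunit of the interferon gamma receptor, was at 0.27 (SE 0.14, edgeR adjusted p = 0.124) in the positive fraction, and Ifnar1 of the type I receptor was at 0.42 (SE 0.063, edgeR adjusted p = 4.27e-05). Ifngr2, the other subunit of the interferon gamma receptor, was at 0.34 (SE 0.10, edgeR adjusted p = 0.0106) and Ifnar2 at 0.41 (SE 0.084, edgeR adjusted p = 0.000896). The difference between fractions was called for Ifngr2 alone, with the larger effect in the positive fraction, at 0.50 (SE 0.15, edgeR adjusted p = 0.0441), and for 2 of the 5 with the animal as a block.

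Of 9 JAK-STAT and IRF genes tested, 7 were called higher in the positive fraction and 5 in input, with medians of 0.48 and 0.55, and 0 had a called difference between the fractions by edgeR, DESeq2 or limma (2 at an unadjusted p under 0.05). With the animal as a block 2 were called, both with the larger effect in the positive fraction. Irf8, a microglial member of the IRF family, rose by 0.84 (SE 0.13, edgeR adjusted p = 0.000137) in input and 0.72 (SE 0.11, edgeR adjusted p = 4.19e-05) in the positive fraction. The kinase genes Jak1, at 0.089 in input and 0.046 in pulled-down RNA, and Jak2, at 0.076 and 0.11 in the same order, were not called (edgeR adjusted p = 0.508, 0.655, 0.735 and 0.495).

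Of 8 feedback inhibitors, 4 were called higher in the positive fraction and 3 in input, with medians of 0.91 and 0.30. Ptpn6, a phosphatase that acts on JAK kinases, was at 1.56 (SE 0.24, edgeR adjusted p = 0.000214) in input and 1.66 (SE 0.21, edgeR adjusted p = 8.37e-06) in the positive fraction. Ptpn1, another such phosphatase, was at 0.14 (SE 0.097, edgeR adjusted p = 0.366) in input and 1.20 (SE 0.094, edgeR adjusted p = 2.26e-08) in the positive fraction. The difference of Ptpn1 went in the other direction from that of the GTPases, at 1.06 (SE 0.13, edgeR adjusted p = 0.000111), and so did that of Socs3, which was called as well (1.31) and is named after its value was seen. Pias1 and Ptpn2 were not called in either fraction, with 0.31 and -0.16 in input and 0.038 and 0.22 in pulled-down RNA.

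Among the other interferon-inducible GTPases 13 of 20 listed genes were tested. With LPS 8 of them were higher and 1 was lower by the same calls in pulled-down RNA, and in input 10 were called higher and 0 lower by edgeR, with medians of 1.13 and 2.09. The median difference was -0.51. At an unadjusted p under 0.05 in edgeR, 5 of the 13 had the smaller effect in the positive fraction and 2 the larger. By edgeR 2 were called, both with the smaller effect in the positive fraction, against 3 by DESeq2 and 4 with the animal as a block. The 2 called by edgeR were Gbp9 at -1.85 (SE 0.40, edgeR adjusted p = 0.00734) and Gm4951 at -1.76 (SE 0.47, edgeR adjusted p = 0.0280), named here after their values were seen. Gbp6 and Gbp10, whose copies lie on another chromosome than the 4 GBPs above, rose in both fractions. The log2 fold change of Gbp6 was 3.50 (SE 0.34, edgeR adjusted p = 1.36e-06) in input and 3.04 (SE 0.32, edgeR adjusted p = 9.38e-07) in the positive fraction, with a difference of -0.46 (adjusted p = 0.629). That of Gbp10 was 3.59 in input and 3.67 in the positive fraction, with a difference of 0.074 (edgeR adjusted p = 0.964). Gm4070, of the very large inducible GTPases, rose by 0.82 and 0.76 in the same order. The 1 gene that fell in the positive fraction was 9930111J21Rik1, at -0.64 (SE 0.20, edgeR adjusted p = 0.0144).

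Of 28 type I interferon targets that are not GTPases, 27 were called higher in the positive fraction and 25 in input, with medians of 1.55 and 1.63. Their median difference was -0.076, and 1, Dhx58, was called with the larger effect in the positive fraction (1.04) and 0 in the direction of the GTPases by edgeR, DESeq2 or limma (6 at an unadjusted p under 0.05 in edgeR). With the animal as a block 3 were called with the larger effect in the positive fraction and 4 with the smaller. Ifitm3, which blocks viral entry, rose by 2.75 (SE 0.16, edgeR adjusted p = 3.64e-09) in input and 2.23 (SE 0.15, edgeR adjusted p = 3.12e-09) in the positive fraction. Bst2, which tethers budding virus, rose by 1.61 and 1.22 in the same order, and Cmpk2, a mitochondrial nucleotide kinase, by 0.65 and 0.56.

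Of 21 tested interferon gamma targets that are not GTPases, the positive fraction had 15 called higher and 4 lower, and input had 14 higher and 2 lower, with medians of 0.81 and 0.83. The median difference was -0.083, with Psme1 (0.54) and Psme2 (0.91) called with the larger effect in the positive fraction and Psmb8 (-1.26), a subunit of the immunoproteasome, with the smaller. With the animal as a block 4 were called in each direction. B2m, the light chain of MHC class I, rose by 0.82 (SE 0.11, edgeR adjusted p = 7.81e-05) in input and 0.70 (SE 0.11, edgeR adjusted p = 6.07e-05) in the positive fraction. Tapbp, a chaperone of class I loading, rose by 0.83 and 0.63 in the same order, and Psme1, a proteasome activator subunit, by 0.50 and 1.04. The 4 genes that fell in the positive fraction were the class II genes H2-Aa, H2-Ab1 and H2-Eb1 and their transactivator Ciita, from -2.42 to -1.44, named here after their values were seen. Falls were not limited to that fraction, since in input edgeR called 2 of the 21 lower and DESeq2 and limma each called 4.

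**Figure D5:**
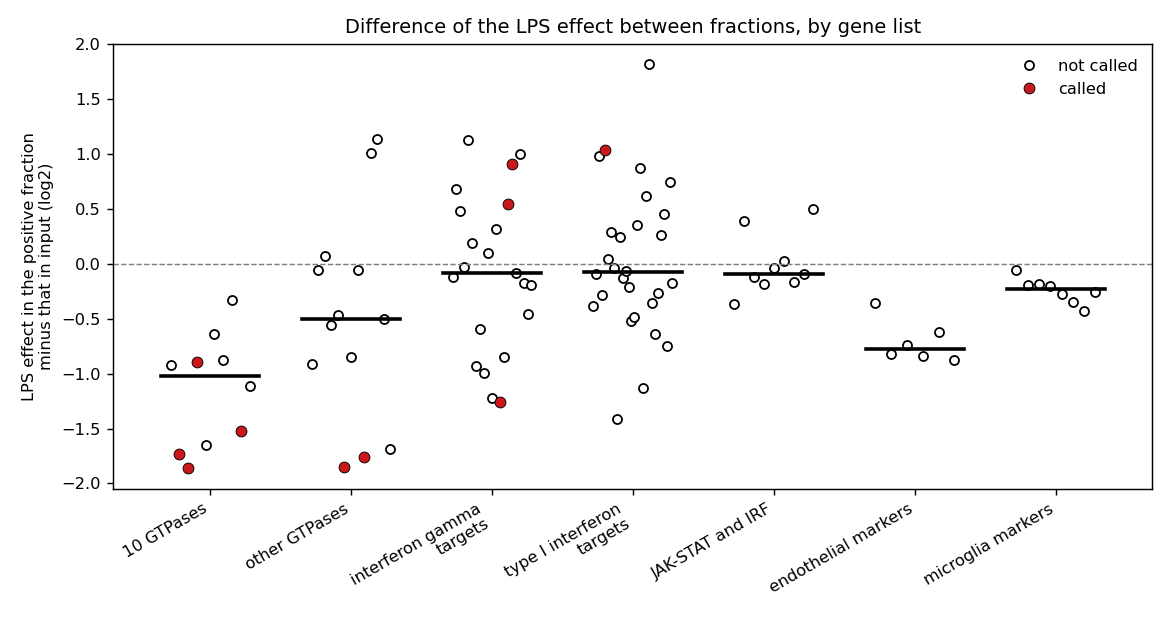
Difference of the LPS effect between fractions for the tested genes of 7 lists, with 1 point per gene, filled where called, and a line at each list's median. The 10 GTPases all lie below 0, the targets of both interferon types lie on both sides, and the 6 endothelial markers lie below 0 with none called.

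The members rose and fell together across the 17 libraries. Each gene's log2(normalised count + 1) had a Pearson correlation with the mean of the members' standardised values between 0.860 for Irgm2 and 0.987 for Igtp, and the lowest correlation between 2 members was 0.618, for Irgm2 and Iigp1. These values include the group differences that all members share and are given as a description. Outside the 10 genes the most alike by this measure was Stat3, a transcription factor of the IL-6 and IL-10 responses, at 0.968, with means of 1820 in Input PBS, 3913 in Input LPS, 2744 in Positive PBS and 5598 in Positive LPS. The next were Tspan4, Ifitm3, Tgm1, H2-Q4, Usp18, Tap1, Eif4b, Cebpd and Hspb1, from 0.961 down to 0.941. Of the 10 genes outside the set, 3 are interferon targets on the lists above, namely Ifitm3, Usp18 and Tap1.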

How the data were processed

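TRAP-RNAseq of mouse brain was measured in 18 libraries from 9 animals. Per the study's methods the authors used a stranded kit, aligned reads to Mm10 in Strand NGS, and deposited estimated counts per RefSeq gene, of which 81.1% of the nonzero values (18 libraries, tolerance 0.001) were not whole. They were rounded to whole numbers for the fit. The authors also deposited log2 values scaled with DESeq over all 18 libraries, used here in 1 alternative. Without molecular identifiers, reads need not be independent molecules, so the limit of 3 counts covers counting error only.

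The 17 libraries were scaled by median-of-ratios size factors (0.766 to 1.32, over 15766 genes). Genes with over 20 normalised counts in every library of at least 1 group were kept, as in the study, leaving 14803. Counts were fitted with edgeR 4.0.16 (quasi-likelihood, glmQLFit and glmQLFTest) and R 4.3.3, giving each group a mean and leaving 13 residual degrees of freedom, and p-values were adjusted by Benjamini-Hochberg over all tested genes. The script was tested on simulated data. Fold changes are fitted log2 values with their standard error (SE). Group values are mean ± SD of normalised counts, and animals are the replicates. Counts per kilobase used the union of exons of the GENCODE M21 basic annotation.

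The input and positive libraries of a number come from the same animal, and their deviations from the group means correlated at 0.162 to 0.519, so a fit with the animal as a block was run: edgeR for comparisons within animals, and limma 3.58.1 (voom, block correlation 0.445) for LPS effects. The study's methods used a 2-way analysis of variance without a block, and the reported fit follows it. That fit treats the input and positive libraries of an animal as independent, so results with the block are given beside it.

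Members and lists were chosen with earlier results of these data known. Named genes are the members, up to 4 genes of highest mean count of each ligand, receptor, signalling and feedback list, up to 3 of each other list, and the 10 genes most correlated with the members. Alternatives were TMM scaling, DESeq2 1.42.0, limma with a trend, no filter, a filter at 100 counts, all 18 libraries, each library left out, only the libraries compared, leaving out animals 506 and 507, sex as a covariate, the block, and the deposited log2 values with limma. A gene that the naming rule selects is not reported here. Protein sequences were not used here.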

Additional observations from a re-analysis of the deposited data

Results flagged for a closer look

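The LPS effect differed between the fractions by the interaction test for 4 members. The effect in the positive fraction minus that in input was -1.52 for Irgm2, -1.74 for Gbp3, -1.86 for Gbp5 and -0.90 for Gbp7 on the log2 scale (edgeR adjusted p = 9.68e-05, 0.00515, 0.0305 and 0.0173).

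In 3 of 40 groups of a member's values, 1 library stood apart from the rest by Dixon's criterion, and chance alone gives about 1 in 20. Gbp3 in Input PBS was 136 normalised counts in animal 272, above the other 3 animals. Igtp in Positive LPS was 2172 in animal 271, and Iigp1 in Positive LPS was 1222 in the same animal.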

How the results depend on the processing

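Under 27 or 28 alternatives each, the 10 LPS effects kept their direction in both fractions, and all 10 were called wherever tested except Irgm2 in the positive fraction without animals 506 and 507 (9 called). Over 100 counts 8 members were tested (not Ifi47 and Tgtp1) and 8 called. Without animals 506 and 507, genes called for LPS in input went from 1839 to 1083, those called for the difference from 1018 to 323 and members from 4 to 1. With the replicate block (paired by animal) they were 1915 and 10, and 7 members were called for positive over input with LPS in place of 3; no LPS effect lost its call. Leaving out 1 library gave 3 to 5 members for positive over input with LPS (5 without the input library of animal 266, adding Gbp2 at 0.94 and Gbp5 at 1.28), 7 to 10 with PBS, 3 to 5 for the difference and 749 to 1263 genes for the difference. The sign turned in ratios with LPS that were not called with all 17 libraries, and of the turned values that of Iigp1 with the block was called: Gbp3 was -0.046 with all 18 libraries, -0.036 with deposited log2 values, -0.073 with the block and -0.11 to 0.30 with 1 library left out; Iigp1 was -0.13 with the limma trend, -0.24 with deposited log2 values, -0.59 with the block and -0.60 to 0.40; Tgtp1 was -0.27 to 0.18. The Irgm1 difference was -0.62 to 0.060. The call for Gbp5 was also lost with deposited log2 values (-1.71, limma adjusted p = 0.0576) and without animals 506 and 507 (-1.97, edgeR adjusted p = 0.138). The causes were not tested. At these depths 3 counts came to 2.27 to 3.92 normalised counts, and the lowest value of any member was 7.62, for Ifi47 in 1 Input PBS library. With 4 or 5 libraries a group, the number of animals limits the precision.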

Other observations

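Genes that act with these GTPases on vacuoles and in inflammasomes were read as a further list of 20, all tested. With LPS 11 were higher and 2 lower by edgeR in the positive fraction, and 10 higher and 0 lower in input, with medians of 0.49 and 0.35 on the log2 scale. The median difference between the fractions was 0.12, and 0 of 20 were called by edgeR (3 at an unadjusted p under 0.05), 1 by limma, 2 by DESeq2 and 2 with the animal as a block. In input the block left 6 called higher. Sqstm1, the autophagy receptor p62, was at 0.065 (SE 0.13, edgeR adjusted p = 0.712) in pulled-down RNA and 0.18 (SE 0.14, edgeR adjusted p = 0.421) in input. The ATG8 family genes Map1lc3b, at 0.082 and 0.25, and Gabarapl2, at -0.33 and -0.13, had edgeR adjusted p = 0.378, 0.0308, 0.00649 and 0.399. The 2 genes that fell in the positive fraction were Gabarapl2 and Atg12 (-0.34), and the latter is named after its value was seen.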
